A study of Arabidopsis thaliana with 12 samples.

Results

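Transcript levels were compared by RNA-seq between Arabidopsis seedlings that carry the rev-5 allele (2 libraries) and seedlings of the wild type Col-0 (2 libraries), both grown in white light (WL). They are 4 of the 12 libraries of the study, chosen by genotype and light alone. The other 8 are rev-5 and Col-0 seedlings in white light with added far-red (WL+FR), and seedlings labelled wox4 in WL and in WL+FR, each with 2 libraries. rev-5 is an amino acid substitution allele of REVOLUTA (REV) and Col-0 carries the wild type gene. All groups share continuous light and whole seedlings as the source of RNA. The comparison asks which transcripts depend on REV when no shade signal is given, and 18789 of the 32824 listed genes were tested for it.

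REV is a class III homeodomain leucine zipper (HD-ZIP III) transcription factor. Factors of this class set the upper side of leaves, pattern the vascular bundles and keep the shoot meristem, and small LITTLE ZIPPER proteins bind them and hold them inactive. Plants also carry a large set of genes for chemical defence: in Arabidopsis and its relatives, glucosinolates are sulfur-containing compounds that the enzyme myrosinase cleaves into toxic products when tissue is damaged, while camalexin and indole carbonylnitriles are made from tryptophan when microbes are sensed.

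Levels are given as FPKM, the fragments of a transcript scaled to its length and to the depth of the library, as the deposited tables give them, as the first and second library of each genotype. Fold changes are rev-5 over Col-0 on the log2(TPM + 1) scale, which understates the change of weakly expressed genes. Their standard errors (SE) and adjusted p-values come from limma with Benjamini-Hochberg adjustment over all tested genes. Genotypes have 2 libraries each, and the methods call them biological replicates. In bulk seedlings, fewer cells of a type and less RNA per cell cannot be told apart.

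The 4 libraries were of like depth and quality. Across all 12, relative depth ran between 0.904 and 1.003, and a tested gene had a median of 139 to 162 estimated fragments. Log values correlated at r = 0.9902 between the rev-5 libraries and r = 0.9915 between the Col-0 libraries, against 0.9856 to 0.9862 between genotypes (across genes, which are not independent). Mesophyll and root markers were both present, with a summed level of 48497.8 and 48819.7 FPKM in rev-5, against 48722.5 and 51970.7 FPKM in Col-0, for 7 mesophyll markers. REV itself (AT5G60690) had 3.96 and 3.74 FPKM in rev-5, against 3.74 and 3.66 FPKM in Col-0. A substitution need not change the transcript level, so this is no check of the genotype.

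Seedlings of rev-5 carried more transcript of the tryptophan-derived defence pathways and of some families of detoxifying enzymes. They carried less of aliphatic glucosinolate enzymes, of histones and of several single genes. At a log2 fold change over 1 and adjusted p under 0.001, 26 genes were higher (0.138% of those tested) and 11 lower (0.0585%), together 37 (0.197%). At adjusted p under 0.05 alone, called the wider threshold here, 642 genes were higher (3.42%) and 501 lower (2.67%), together 1143 (6.08%). Most of these differences were small. The median size was 0.48 on the log2 scale for the higher genes and 0.40 for the lower ones, and 71 of the 1143 exceeded a log2 fold change of 1. In all 1143 genes both rev-5 libraries lay on the same side of both Col-0 libraries, as they did in 48.8% of all tested genes.

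**Figure D1:**
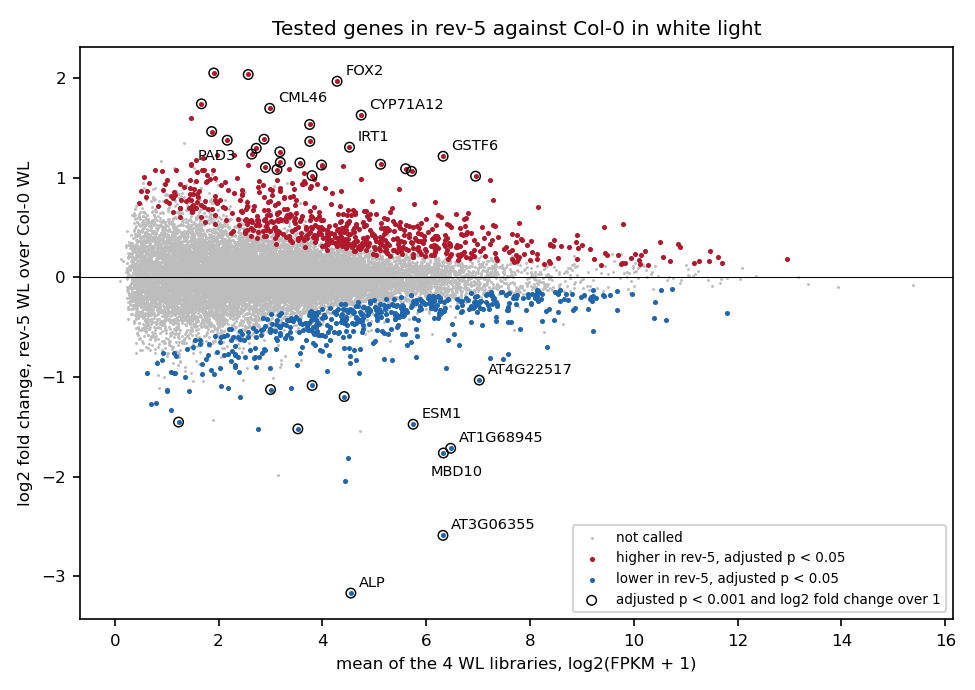
Each point is 1 tested gene, with the mean of the 4 WL libraries as log2(FPKM + 1) on the horizontal axis and the log2 fold change of rev-5 over Col-0 on the vertical axis. Red and blue mark genes higher and lower in rev-5 at adjusted p under 0.05, and circles the 37 genes that also passed 0.001 with a log2 fold change over 1. The deepest points are lower in rev-5 and are single genes of unlike function, while the higher side holds more circled genes.

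With 2 libraries a genotype, 1 library can decide a call. All 37 genes of the stricter call stayed at adjusted p under 0.05 when any 1 of the 4 libraries was left out. Of the 1143, 371 did so without each library (235 higher, 136 lower), and many list counts are given with this number beside the full one.

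Several of the genes that rose most have W-boxes, the short core that WRKY transcription factors of the immune response bind, close to their start. The letters searched were TTGACC and TTGACT on both strands in the 250 bases upstream of the annotated start, and 28.3% of the promoters of 18372 tested protein-coding genes held at least 1. Among the promoters of the 26 genes raised by the stricter call 15 did (57.7%), among the 637 raised at the wider threshold 227 (35.6%), and among the 480 lowered ones 109 (22.7%). A match describes the sequence and is not a measured binding site. Sequences follow for 5 raised genes of the defence group and for ESM1, the most lowered gene of the glucosinolate group, so that the cores can be seen in place. They come from the RefSeq TAIR10.1 assembly, run from position -250 to -1 before the start of each gene on its own strand, and carry the W-box cores in capitals. In FOX1 and FOX2, which lie next to each other in tandem, a core in the same orientation begins at position -70 in both, and FOX1 has another at -30. CYP82C2 has cores at -250, -143 and -96, and CYP81F2 at -194 and -109. CYP71A12 and ESM1 have none of these letters in the window, and neither has PAD3, whose sequence is not printed.
FOX1 (minus strand, chr1:9128569-9128818): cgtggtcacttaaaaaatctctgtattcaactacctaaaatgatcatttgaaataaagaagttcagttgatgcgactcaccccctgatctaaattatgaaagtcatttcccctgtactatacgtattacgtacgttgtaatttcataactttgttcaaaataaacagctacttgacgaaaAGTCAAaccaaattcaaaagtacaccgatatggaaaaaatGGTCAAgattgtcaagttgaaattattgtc
FOX2 (minus strand, chr1:9131780-9132029): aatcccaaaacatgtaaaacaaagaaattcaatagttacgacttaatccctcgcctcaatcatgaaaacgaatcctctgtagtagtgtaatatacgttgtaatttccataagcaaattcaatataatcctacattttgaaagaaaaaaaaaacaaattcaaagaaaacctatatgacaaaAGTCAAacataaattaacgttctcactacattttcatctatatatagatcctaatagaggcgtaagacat
CYP82C2 (plus strand, chr4:15462100-15462349): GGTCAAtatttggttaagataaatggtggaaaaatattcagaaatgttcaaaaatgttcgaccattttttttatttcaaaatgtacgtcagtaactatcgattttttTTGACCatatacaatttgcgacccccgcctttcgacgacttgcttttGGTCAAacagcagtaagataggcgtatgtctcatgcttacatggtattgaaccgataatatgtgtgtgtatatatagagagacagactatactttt
CYP81F2 (plus strand, chr5:23187590-23187839): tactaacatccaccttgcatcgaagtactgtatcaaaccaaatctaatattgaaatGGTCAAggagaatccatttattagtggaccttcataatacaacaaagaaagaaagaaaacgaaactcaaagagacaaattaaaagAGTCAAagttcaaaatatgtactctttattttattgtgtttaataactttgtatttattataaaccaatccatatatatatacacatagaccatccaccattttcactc
CYP71A12 (minus strand, chr2:13101372-13101621): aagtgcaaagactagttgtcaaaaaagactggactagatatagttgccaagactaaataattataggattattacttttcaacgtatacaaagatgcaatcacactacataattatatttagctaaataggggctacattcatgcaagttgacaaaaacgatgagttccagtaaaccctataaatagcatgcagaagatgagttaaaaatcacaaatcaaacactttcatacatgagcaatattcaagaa
ESM1 (plus strand, chr3:4729149-4729398): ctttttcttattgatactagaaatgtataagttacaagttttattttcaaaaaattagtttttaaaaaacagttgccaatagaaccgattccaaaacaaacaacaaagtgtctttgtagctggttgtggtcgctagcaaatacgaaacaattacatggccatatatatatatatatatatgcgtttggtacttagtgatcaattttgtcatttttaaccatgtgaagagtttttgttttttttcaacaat

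Of 69 gene lists, the one with the highest median was the pathway to camalexin and indole carbonylnitriles. Of its 8 tested genes 6 were higher and none lower at the wider threshold, 5 of them by the stricter call, and the median log2 fold change was 1.23 (median over all tested genes 0.00). All 6 stayed called without each library. CYP79B2, which turns tryptophan into indole-3-acetaldoxime at the head of these pathways, had 79.02 and 77.33 FPKM in rev-5, against 64.31 and 60.56 FPKM in Col-0 (log2 fold change 0.32, SE 0.05, adjusted p = 0.00255). The enzymes after the branch point differed more. CYP71A12, the P450 that takes the aldoxime onward, had 40.24 and 38.48 FPKM in rev-5, against 12.20 and 12.51 FPKM in Col-0 (log2 fold change 1.63, SE 0.06, adjusted p = 2.53e-08). Its close copy CYP71A13 was listed at 0 in all libraries, so reads of the 2 genes may not have been told apart.

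Both branches beyond CYP71A12 were higher in rev-5. PAD3, the P450 that closes the ring of camalexin, had 7.49 and 7.60 FPKM in rev-5, against 2.32 and 3.51 FPKM in Col-0 (log2 fold change 1.24, SE 0.15, adjusted p = 0.00046). On the carbonylnitrile branch, the oxidase FOX1 had 19.17 and 17.43 FPKM in rev-5, against 6.43 and 7.09 FPKM in Col-0 (log2 fold change 1.36, SE 0.09). CYP82C2 (AT4G31970), which adds a hydroxyl group to the nitrile, had 4.95 and 5.65 FPKM in rev-5, against 1.5 and 1.87 FPKM in Col-0 (log2 fold change 1.38, SE 0.16). GSTF6, a glutathione transferase reported to act in camalexin synthesis, was the most abundant gene of the group that passed the stricter call, with 113.50 and 108.39 FPKM in rev-5, against 47.75 and 47.27 FPKM in Col-0 (log2 fold change 1.21, SE 0.05). None of the 9 tested genes of tryptophan synthesis itself passed the wider threshold in limma (median 0.14, and 1 at an unadjusted p under 0.05, against 19.7% of all tested genes).

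FOX1 belongs to the berberine bridge enzyme-like oxidases, and of this family 11 of 19 tested members were higher and 1 lower, 10 of the 11 without each library, with a median of 0.50. FOX2 had 29.77 and 29.73 FPKM in rev-5, against 6.71 and 7.69 FPKM in Col-0, a log2 fold change of 1.97 (SE 0.09, adjusted p = 1.44e-07). FOX4 and AT5G44440 passed the stricter call too, at log2 fold changes of 1.26 and 1.74. AT1G30700, AT1G30720 and AT1G30730, which form another tandem, were higher by 0.70, 0.52 and 0.53 on the log2 scale. Tandem copies are alike in sequence, and how shared reads were divided among them is not stated. Of the 19 tested members 12 had a W-box core (63.2%), and of the 12 called ones 10 (83.3%).

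Glutathione transferases of the phi and tau classes, which join glutathione to reactive compounds, gave 11 higher and 4 lower of 35 tested. Without each library 8 higher and 2 lower ones stayed called. GSTF7, the neighbour and near copy of GSTF6, had 199.79 and 193.46 FPKM in rev-5, against 101.16 and 98.37 FPKM in Col-0 (log2 fold change 0.98). Of the tau members, GSTU4 was higher by 1.17, ERD9 by 0.89, GSTU22 by 0.88, GSTU12 by 0.83, GSTU10 by 0.66, GSTU25 by 0.57, GSTU24 by 0.55 and GSTU8 by 0.54 on the log2 scale. GSTU4 lost its call without the first Col-0 library (log2 fold change 0.90, adjusted p = 0.0557), and GSTU12 without any 1 library (adjusted p 0.0623 to 0.202). The lowered GSTF9 and GSTU20 fell by 0.20 and 0.35, and GSTU20 is counted with the aliphatic glucosinolate genes. GSTF11, at -0.59 the lowest of the list, and GSTF10 were lower too, but did not stay called without each library. UDP-glycosyltransferases, a larger family, gave 6 higher and 3 lower of 88 tested (5 and 0 without each library), at a median of 0.04.

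Several other families of secreted and oxidative defence genes gave more higher than lower calls, in smaller steps. Chitinases, which cut the fungal cell wall polymer chitin, gave 5 higher and none lower of 16 tested, all 5 without each library, at a median of 0.35. The gene annotated as CHI (AT2G43570) had 48.98 and 44.24 FPKM in rev-5, against 23.06 and 18.97 FPKM in Col-0 (log2 fold change 1.13, SE 0.09, adjusted p = 3.05e-05). Class III peroxidases, which use hydrogen peroxide in the cell wall, gave 12 higher and 2 lower of 50 (7 and 1 without each library), with PER62 higher by 0.98, PER69 by 0.60 and PER71 by 0.39. P450s of families 71, 76, 81 and 82 gave 12 higher and 1 lower of 50 (7 and 0 without each library). Of 19 tested genes listed as jacalin lectins, 5 were higher and none lower, and 2 stayed without each library. That list was built by name and does not hold MBP1, a myrosinase-binding lectin that was lower in rev-5. Of 2 smaller lists of secreted defence genes, neither gave a higher call. Plant defensins gave 0 higher and 1 lower of 5, at a median of 0.23 with 3 members above 0. Glucan endo-1,3-beta-glucosidases gave 0 higher and 1 lower of 2. Lists this small do not show how the families moved. Each of these lower genes stayed called without each library.

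Single genes of like annotation stood among the most raised. CML46, a calmodulin-like protein that belongs to the calcium sensors, had 10.58 and 11.18 FPKM in rev-5, against 2.80 and 3.12 FPKM in Col-0 (log2 fold change 1.69, SE 0.10). An extensin-like protein (AT1G26240), a germin-like protein (GLP9), a basic secretory protein (AT2G15220) and an aspartyl protease (AT5G48430) were higher by 1.46, 1.15, 1.09 and 1.08. The largest rise of all was that of AT4G37290, named PIP2 in the files, at 4.52 and 5.06 FPKM in rev-5, against 0.61 and 0.82 FPKM in Col-0 (log2 fold change 2.05, SE 0.20), and AT3G55790, without annotated function, followed at 2.03 (SE 0.26). These 2 rest on few reads, with 4 estimated fragments in the library that had the fewest.

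**Figure D2:**
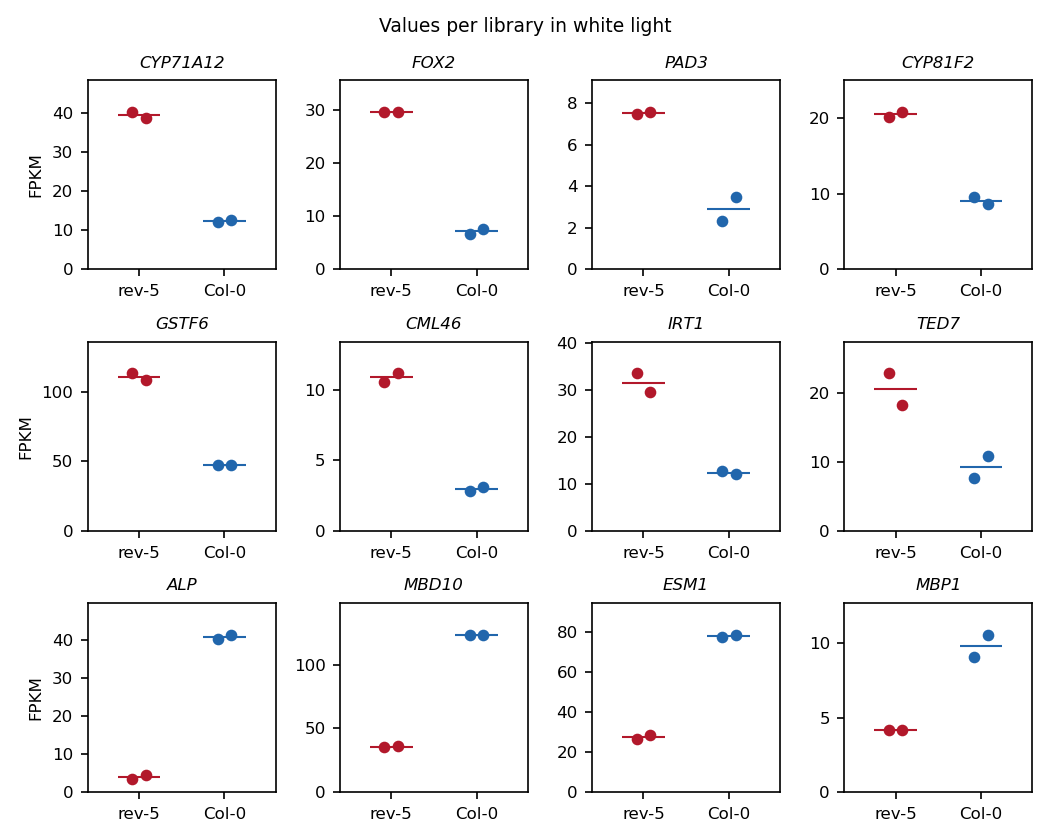
FPKM of 12 genes in each WL library, rev-5 in red on the left and Col-0 in blue on the right, with a line at the mean of the 2 libraries. The genotypes do not overlap in any panel, and TED7 has the widest spread within a genotype relative to its difference (18.25 to 22.84 FPKM in rev-5, 7.70 to 10.78 FPKM in Col-0).

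The regulators of these pathways gave few calls. Of 51 tested WRKY factors 2 were higher, WRKY33 and WRKY31, and neither stayed called without each library. WRKY33, the known activator of PAD3, had 11.53 and 12.64 FPKM in rev-5, against 8.02 and 8.21 FPKM in Col-0 (log2 fold change 0.54, SE 0.13, adjusted p = 0.0269), and its adjusted p lay between 0.0746 and 0.151 when 1 library was left out. Among 17 genes of salicylic acid synthesis and response, FMO1 (log2 fold change 0.93) and CBP60G (0.67) were higher. FMO1 lost its call without any 1 library (adjusted p 0.124 to 0.189), and CBP60G lost it without the first rev-5 library (0.0552) or the second Col-0 library (0.06). Of 26 immune receptors and signalling genes WRKY33 alone was called, of 39 receptor-like proteins none (4 at an unadjusted p under 0.05), and of 17 jasmonate response genes 1. These counts lie at or below the background of 6.08% except that of the salicylic acid list.

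Glucosinolate genes split by the amino acid the compounds derive from. The indole branch starts from tryptophan, and 5 of its 16 tested genes were higher and none lower, all 5 without each library. CYP81F2, which hydroxylates the indole ring, had 20.19 and 20.88 FPKM in rev-5, against 9.54 and 8.68 FPKM in Col-0 (log2 fold change 1.13, SE 0.09, adjusted p = 1.98e-05). The methyltransferases that act after it, IGMT2, IGMT3 and IGMT1, were higher by 0.93, 0.65 and 0.43, and CYP81F4 by 0.33. These enzymes modify the indole ring. Others of the same families were not called, with CYP81F3 at 0.00 and IGMT4 at 0.02. The core enzymes and MYB regulators of this list were not called either, and the median over all 16 was 0.05. CYP79B2, which acts on tryptophan at the head of the pathway and was higher, is counted with the camalexin list and not here.

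The aliphatic branch, which starts from methionine, moved the other way. Of its 26 tested genes 12 were lower and 1 higher (6 and 0 without each library), with a median of -0.34. The chain-elongating enzyme MAM1 had 17.85 and 16.29 FPKM in rev-5, against 32.20 and 29.48 FPKM in Col-0 (log2 fold change -0.83, SE 0.09, adjusted p = 0.000158). IPMI2 and IPMI1, subunits of the isomerase of the same elongation cycle, were at -0.82 and -0.73. The first core enzyme CYP79F1 had 11.39 and 10.62 FPKM in rev-5, against 18.31 and 19.13 FPKM in Col-0 (-0.74, SE 0.12), and CYP83A1 after it was at -0.59. The regulator MYB29 was at -0.72 (adjusted p = 0.00992) but passed 0.05 in only 2 of the 4 fits without 1 library, failing without the first rev-5 library (0.0674) and the second Col-0 library (0.0946). MYB28, the other main regulator, had 35.38 and 32.32 FPKM in rev-5, against 36.70 and 37.30 FPKM in Col-0 (log2 fold change -0.13, adjusted p = 0.379). The single raised gene was FMO GS-OX4, one of the enzymes that oxidise the side chain, whereas FMO GS-OX1 and FMO GS-OX3 of the same family were at -0.87 and -0.77. With 1 library left out, the adjusted p lay between 0.0512 and 0.107 for FMO GS-OX1, between 0.0751 and 0.188 for FMO GS-OX3 and between 0.0235 and 0.113 for FMO GS-OX4, which failed without the second rev-5 library or the first Col-0 library.

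Genes of glucosinolate breakdown went both ways, with 6 higher and 3 lower of 19. Without each library 2 of the higher and all 3 of the lower ones stayed called, and the lower ones had the largest changes. ESM1, a GDSL lipase-like protein that steers breakdown from nitriles toward isothiocyanates, had 26.77 and 28.53 FPKM in rev-5, against 77.17 and 78.60 FPKM in Col-0 (log2 fold change -1.47, SE 0.07, adjusted p = 3.2e-07). MBP1, a myrosinase-binding lectin, had 4.19 and 4.16 FPKM in rev-5, against 9.10 and 10.59 FPKM in Col-0 (-1.13, SE 0.11). The myrosinase TGG2 had 9.21 and 12.72 FPKM in rev-5, against 20.86 and 21.69 FPKM in Col-0 (-0.93, SE 0.15). The more abundant myrosinase TGG1 did not pass, at 197.29 and 206.53 FPKM in rev-5, against 206.25 and 216.14 FPKM in Col-0 (adjusted p = 0.472). Among the higher genes, PYK10, the beta-glucosidase of root endoplasmic reticulum bodies, had 384.32 and 412.56 FPKM in rev-5, against 299.61 and 314.64 FPKM in Col-0 (0.38, SE 0.05).

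**Figure D3:**
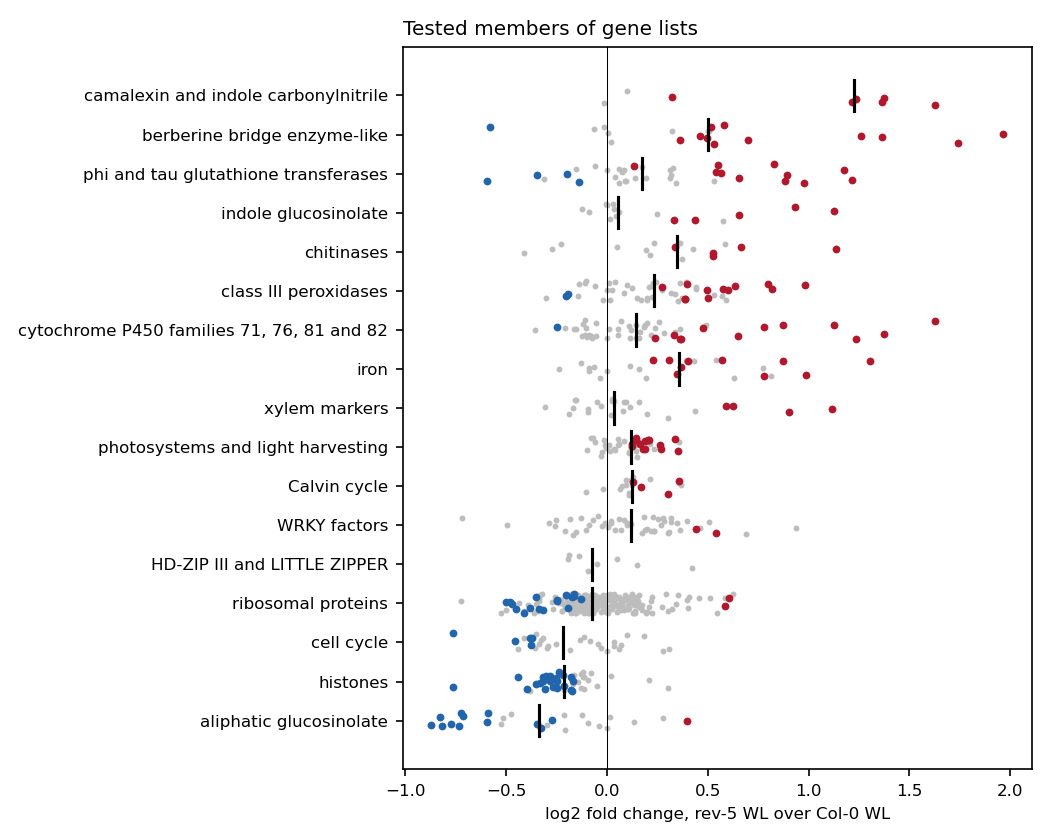
Log2 fold change of rev-5 over Col-0 in WL for the tested members of 17 gene lists, 1 point a gene and a black bar at the median of each list. Red points were higher and blue points lower at adjusted p under 0.05, and grey points did not pass. The camalexin and indole carbonylnitrile list has its median at 1.23 and the aliphatic glucosinolate list at -0.34, and the small shifts of histones (-0.22) and photosystem genes (0.12) come from many members near the median.

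Of 26 tested iron genes 10 were higher and none lower, 4 of them without each library. The median was 0.36, and 7 of the 26 lay below 0. IRT1, the root transporter that takes up ferrous iron, had 33.57 and 29.55 FPKM in rev-5, against 12.73 and 12.10 FPKM in Col-0 (log2 fold change 1.3, SE 0.16, adjusted p = 0.00054). F6'H1, the enzyme for scopoletin and other coumarins that roots release to mobilise iron, had 33.97 and 34.91 FPKM in rev-5, against 16.99 and 17.16 FPKM in Col-0 (0.99, SE 0.08). FER1, a ferritin that stores iron in plastids, had 54.57 and 59.20 FPKM in rev-5, against 44.62 and 41.25 FPKM in Col-0 (0.40, SE 0.06), and BTS, a ligase that restrains the iron deficiency response, was higher by 0.37. IRT1 and F6'H1 are known to be induced by iron shortage, and FER1 by iron excess. The reductase FRO2, which works beside IRT1, had 3.75 and 2.88 FPKM in rev-5, against 2.06 and 1.79 FPKM in Col-0, and did not pass (adjusted p = 0.0955).

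IRT1, F6'H1 and PYK10 are mostly transcribed in roots, and the share of root in each seedling sample was not measured. The 18 root and root hair markers summed to 449.5 and 480.5 FPKM in rev-5, against 362.4 and 382.1 FPKM in Col-0. Most of that sum is PYK10. The other 17 markers summed to 65.2 and 67.9 FPKM in rev-5, against 62.8 and 67.4 FPKM in Col-0, and none of those tested was called. Seedlings labelled wox4, which are set against the same Col-0 libraries, had 19.75 and 23.18 FPKM of IRT1 and 58.91 and 61.74 FPKM of FER1 in WL.

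Photosynthesis genes were higher by small amounts. Of 42 tested genes of the photosystems and light harvesting 14 were higher and none lower (5 without each library), with a median of 0.12, and of 18 Calvin cycle genes 4 were higher (2 without each library). RCA, the activase of Rubisco, had 1589.63 and 1669.23 FPKM in rev-5, against 1267.89 and 1277.75 FPKM in Col-0 (log2 fold change 0.36, SE 0.03). The light-harvesting genes LHCB2.3, CAB2 and LHCB6 were higher by 0.35, 0.26 and 0.21, and the carbonic anhydrase CA1 by 0.54. The direction of the photosystem list held under quantile normalization, though its median there was 0.056.

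Among the genes that remove hydrogen peroxide, 2 of 17 were higher and 2 lower, all 4 without each library. The catalase AT4G35090 (CAT2) had 246.07 and 246.56 FPKM in rev-5, against 178.95 and 187.77 FPKM in Col-0 (log2 fold change 0.43, SE 0.03). The catalase AT1G20620 (CAT3) had 487.72 and 477.00 FPKM in rev-5, against 707.27 and 697.38 FPKM in Col-0 (-0.54, SE 0.03, adjusted p = 1.64e-06). CAT2 and CAT3 are known to peak at opposite ends of the day. Of 24 clock genes, LHY and RVE8, which act in the morning, were higher, at 0.62 and 0.58, and the evening genes TOC1, PCL1 and FKF1 lower, at -0.28, -0.28 and -0.59. LHY had 28.95 and 25.38 FPKM in rev-5, against 17.82 and 17.08 FPKM in Col-0 (SE 0.08, adjusted p = 0.000812), and FKF1 had 17.25 and 17.21 FPKM in rev-5, against 26.48 and 26.17 FPKM in Col-0 (SE 0.08, adjusted p = 0.00142). LHY and FKF1 stayed called without each library. With 1 library left out the adjusted p lay between 0.052 and 0.123 for RVE8, between 0.0651 and 0.171 for TOC1 and between 0.052 and 0.08 for PCL1.

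Flowering genes followed in small numbers, with 2 of 16 higher and 1 lower. FT, the mobile signal that starts flowering, had 1.16 and 1.18 FPKM in rev-5, against 0.10 and 0.42 FPKM in Col-0 (log2 fold change 1.07, SE 0.18, adjusted p = 0.00439). The lower Col-0 value stands for an estimated fragment number that rounds to 0. Its target AGL20 (SOC1) was at 0.49 and SPL9 at -0.63, and both calls were lost without at least 1 library (adjusted p 0.0441 to 0.219 for AGL20 and 0.0489 to 0.0858 for SPL9).

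The vascular genes, with which REV is best known, gave 4 higher genes and no lower one of 25 xylem markers, and the median of that list was 0.04. TED7, a gene of differentiating tracheary elements, had 22.84 and 18.25 FPKM in rev-5, against 7.70 and 10.78 FPKM in Col-0 (log2 fold change 1.11, SE 0.19, adjusted p = 0.0044). Its adjusted p was 0.0515 without the first rev-5 library and 0.0514 without the first Col-0 library. LAC11, a laccase that polymerises lignin, was at 0.90 and TED6 at 0.59, and their adjusted p rose to as much as 0.131 and 0.0561 when 1 library was left out. XCP1, a protease of dying xylem cells, had 25.78 and 26.01 FPKM in rev-5, against 17.28 and 15.95 FPKM in Col-0 (0.62, SE 0.10, adjusted p = 0.00216) and stayed called without each library. The 30 xylem markers summed to 245.6 and 229.7 FPKM in rev-5, against 196.1 and 198.2 FPKM in Col-0, with CESA4 listed at 0 in all 4 libraries. Of 9 phloem markers none passed in limma (median -0.13, 3 at an unadjusted p under 0.05), and the sums did not exceed those of Col-0, at 155.8 and 153.4 FPKM in rev-5, against 160.6 and 164.0 FPKM in Col-0. In the wox4-labelled seedlings, which share the Col-0 libraries, the log2 fold changes were 1.06 for TED7, 0.81 for LAC11, 0.68 for TED6 and 0.62 for XCP1.

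Genes closer to REV in function gave no call by limma at the wider threshold. This held for the 8 tested HD-ZIP III and LITTLE ZIPPER genes (median -0.07), for 11 leaf polarity genes (-0.05) and for 5 shade-induced HD-ZIP II genes (-0.20), of which 1, 2 and 1 had an unadjusted p under 0.05. HB-8, an HD-ZIP III gene of the procambium, had 3.48 and 3.55 FPKM in rev-5, against 2.1 and 2.91 FPKM in Col-0 (log2 fold change 0.42, adjusted p = 0.124), and PHB had 5.68 and 5.64 FPKM in rev-5, against 5.01 and 5.09 FPKM in Col-0 (0.15, adjusted p = 0.509). Of 12 cambium genes ANT and CYCD3;1 were lower, at -0.42 and -0.46, and both lost the call without the second Col-0 library (adjusted p 0.195 and 0.138), among others. WOX4 had 1.37 and 0.94 FPKM in rev-5, against 1.13 and 1.82 FPKM in Col-0, which overlap (log2 fold change -0.23, and 0.01 without the second Col-0 library).

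Histone genes gave the highest count of lower genes among the 69 lists. Of 41 tested, 22 were lower and none higher (7 without each library), and 38 had a value below 0, with a median of -0.22. The histone H3 gene AT5G65360 had 323.08 and 330.33 FPKM in rev-5, against 408.41 and 426.92 FPKM in Col-0 (log2 fold change -0.35, SE 0.04, adjusted p = 0.00054). HTA9, an H2A.Z, was at -0.40, the H2B gene HTB2 at -0.24 and the H4 gene AT5G59690 at -0.22. Histone genes are many near copies, and the division of shared reads among them is uncertain. The octamer CGCGGATC, an element of plant histone promoters, was in 9 of the 41 windows (22.0%), against 0.158% of all. Of 30 cell cycle genes 5 were lower and none higher (median -0.22), and none of the 5 stayed called without each library. Ribosomal protein genes gave 17 lower and 2 higher of 250 (5 and 0 without each library), a share of 7.60% that lies near the background of 6.08%, with a median of -0.08. RPL12A, which had 294.37 and 293.47 FPKM in rev-5, against 367.12 and 366.38 FPKM in Col-0 (-0.32, SE 0.04), showed the size of these differences.

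Epidermal and cell wall genes were mixed. The stomatal lineage receptor TMM was at -0.53 (adjusted p = 0.00607, and 0.0648 without the first Col-0 library), and 14 guard cell and stomatal lineage markers summed to 47.7 and 50.1 FPKM in rev-5, against 61.9 and 55.6 FPKM in Col-0. No trichome marker was called by limma of 6 tested (1 at an unadjusted p under 0.05), and GL2 is listed at 0 in all 4 libraries. Lipid transfer proteins gave 10 higher and 6 lower of 61 (6 and 4 without each library). The lower ones include a cluster on chromosome 4, where AT4G22517 had 85.31 and 83.59 FPKM in rev-5, against 180.23 and 166.72 FPKM in Col-0 (log2 fold change -1.03, SE 0.10), and its neighbours AT4G22490 and AT4G22513 were at -0.91 and -0.81. Of 28 xyloglucan endotransglucosylase/hydrolases, which remodel the wall, 3 were higher and 3 lower (1 and 2 without each library), among them XTH7 at 0.51 and XTH9 at -0.67. The auxin, brassinosteroid, cytokinin and gibberellin lists gave shares near the background of 6.08%, or no call. Of 36 auxin genes 1 was higher and 1 lower (0 and 1 without each library). At an unadjusted p under 0.05 in limma there were 14 auxin genes (38.9%, against 19.7% of all tested genes). The lower auxin gene was DFL1, which conjugates auxin to amino acids (-0.40). Of 15 brassinosteroid genes 1 was higher (the synthesis enzyme CPD, 0.31). Of 21 cytokinin genes 1 was lower (0 without each library), and of 21 gibberellin genes none was called (2 at an unadjusted p under 0.05). Jasmonate synthesis gave 1 higher and 2 lower of 13 (23.1%), and the SAUR family 2 higher and 2 lower of 28 (14.3%). No call of either list stayed without each library.

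The deepest decreases were in single genes outside these lists. ALP (AT5G60360), an aleurain-like cysteine protease of the vacuole, had 3.54 and 4.54 FPKM in rev-5, against 40.22 and 41.34 FPKM in Col-0 (log2 fold change -3.17, SE 0.19, adjusted p = 1.81e-06). MBD10, a methyl-CpG-binding domain protein, had 35.19 and 36.55 FPKM in rev-5, against 122.93 and 123.42 FPKM in Col-0 (-1.76, SE 0.06, adjusted p = 9.49e-09). AT1G68945, of unknown function, and the cystatin-like AT5G05060, of a family that inhibits cysteine proteases, were at -1.72 and -1.52. In each of these genes both rev-5 values lay far below both Col-0 values. In the wox4-labelled seedlings in WL, ALP had 44.17 and 57.21 FPKM and MBD10 had 110.92 and 117.58 FPKM. These libraries had 66.91 and 66.32 FPKM of WOX4 itself, against 1.13 and 1.82 FPKM in Col-0, so they are named by their label throughout. AT1G68945, AT4G22517 and CML46 overlap annotated genes on the other strand, and reads were not stated to be assigned by strand.

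Called genes not annotated as protein coding were lower more often than higher. They made up 5 of the higher genes (0.779%) and 21 of the lower ones (4.19%), against 2.21% of all tested genes. AT3G06355 had 21.08 and 23.15 FPKM in rev-5, against 130.09 and 141.90 FPKM in Col-0 (log2 fold change -2.59, SE 0.09). It overlaps the 5.8S ribosomal RNA gene AT3G41979, which is listed at 0 in all 12 libraries, so reads of the 2 cannot be told apart. AT5G01675, an antisense transcript of the flowering repressor FLC, had 12.88 and 11.38 FPKM in rev-5, against 31.93 and 25.50 FPKM in Col-0 (-1.20, SE 0.12). FLC is listed at 0 in all 12 libraries and the sources do not state that counting used strand, so reads of the sense and antisense transcript cannot be told apart.

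ALP lies 114.5 kb from REV on chromosome 5 (TAIR10 chr5:24279660-24282482), which raises the question whether called genes gather around the mutated locus. Within 250 kb of REV 4 of 85 tested genes passed the wider threshold (4.71%), within 500 kb 13 of 192 (6.77%), within 1 Mb 28 of 417 (6.71%) and within 2 Mb 51 of 841 (6.06%). These shares lie near the 6.08% of all genes. Chromosome 5 as a whole had 5.41% called, and the other chromosomes between 5.97% and 7.17%. The stricter call held for 2 of the 841 genes within 2 Mb, ALP and CYP81F2, and for 1 of the 85 within 250 kb, ALP. Among all tested genes it held for 37 (0.197%).

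**Figure D4:**
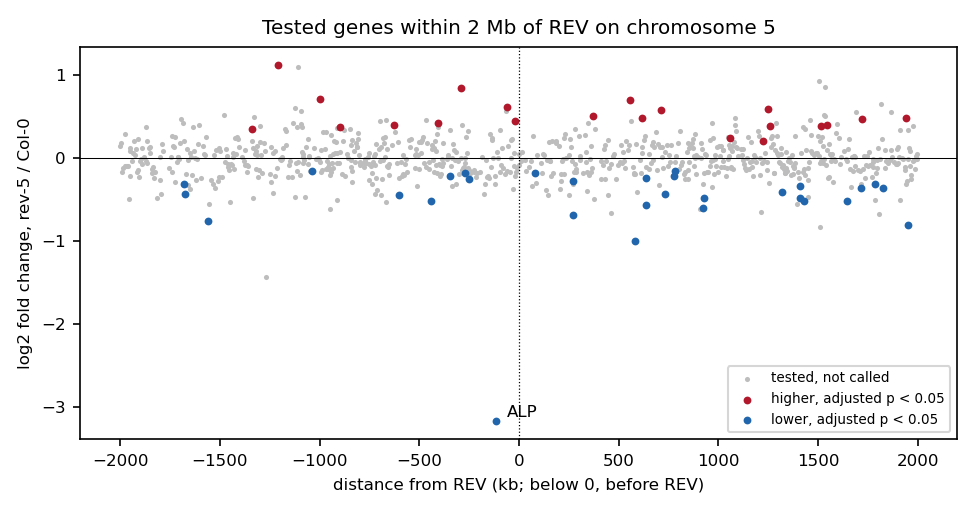
Log2 fold change of the 841 tested genes within 2 Mb of REV, against their distance from REV in kb along chromosome 5 (dotted line at REV). Red and blue points were higher and lower in rev-5 at adjusted p under 0.05. Called genes are spread over the window, and ALP at -3.17 stands alone.

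The rev-5 and Col-0 seedlings in WL+FR are separate libraries, so they show which differences recur in another light. Of the 37 genes of the stricter call 35 had the same direction there (94.6%) and 28 of them also passed adjusted p under 0.05. Of the 1143, 1013 had the same direction (88.6%) and 380 of them also passed. Of all 18789 tested genes, 63.1% had the same direction and 783 of them passed in WL+FR. Counted in either direction, 4.63% of all tested genes were called in WL+FR. The fit used the same estimate of each gene's spread for both lights. Genes with a small estimate are therefore favoured in both, and passing in WL+FR is not independent of passing in WL. The sizes were smaller in WL+FR, with a median log2 fold change of 0.24 for genes higher in WL, where it was 0.48, and of -0.20 for genes lower in WL, where it was -0.40. Since the genes were selected by their value in WL, a smaller value in other libraries is built into this comparison.

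**Figure D5:**
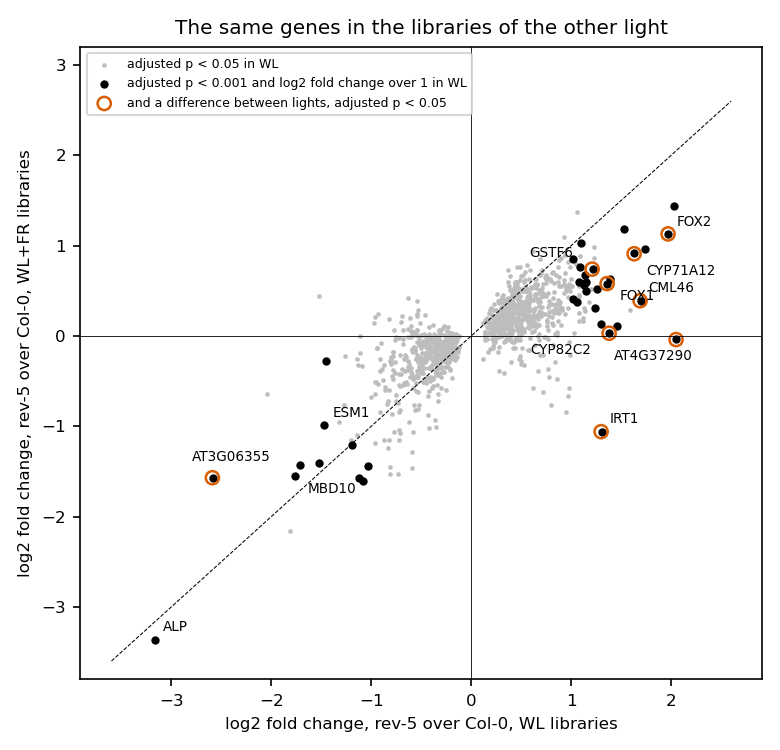
Log2 fold change of rev-5 over Col-0 in WL (horizontal) and in WL+FR (vertical) for the 1143 called genes in grey, with the 37 genes of the stricter call in black and a dashed line where both are equal. Orange rings mark the 9 of them whose difference between lights had adjusted p under 0.05, and IRT1 is the one that lies clearly on the opposite side.

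Groups differed in how they recurred. The aliphatic glucosinolate genes had a median of -0.77 in WL+FR, and all 13 of their calls in WL had the same direction with adjusted p under 0.05. MAM1 had 8.30 and 8.75 FPKM in rev-5, against 20.98 and 21.42 FPKM in Col-0 in that light (log2 fold change -1.24). The histones repeated theirs, at a median of -0.22 and 17 of 22 calls. Of the 12 berberine bridge enzyme-like calls 11 recurred, and all 5 of the indole glucosinolate branch. ALP, MBD10 and ESM1 recurred at -3.36, -1.55 and -0.99.

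Other groups recurred less or not. In the camalexin list 3 of 6 calls passed in WL+FR and the median was 0.21. In that light CYP71A12 had 57.17 and 57.53 FPKM in rev-5, against 29.79 and 31.21 FPKM in Col-0, so that both genotypes stood higher than in WL. The 4 xylem calls kept their direction, with none passing. Of the 10 iron calls 3 had the same direction in WL+FR and 1 passed, and the median of the list was -0.05. IRT1 turned round there, with 8.02 and 9.93 FPKM in rev-5, against 22.10 and 17.11 FPKM in Col-0 (log2 fold change -1.06, adjusted p = 0.003). FER1 did so as well, at -0.29 (adjusted p = 0.0213). In all, 10 of the genes higher in WL were lower in WL+FR at adjusted p under 0.05, and none of those lower in WL was higher. The difference between lights itself passed in 9 of the 37 genes and in 62 of the 1143, against 75 of all tested genes (0.399%).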

How the data were processed

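Total RNA of seedlings was sequenced after TruSeq library preparation. The authors deposited 1 table of FPKM values per library in the layout of Cufflinks. The submitters' processing notes name FastQC, Bowtie2 and Cufflinks without versions, whereas the paper's methods name HISAT2 and the TAIR10 genome, and which of these made the tables is not settled here. Gene positions match RefSeq TAIR10.1 for 32520 of the 32539 shared genes. FPKM were rescaled to TPM in each library, and genes above 0 in all 12 libraries with a mean TPM of at least 0.5 were tested. Leaving out genes with a 0 removes failed estimates but also genes silent in 1 group. log2(TPM + 1) was fitted with limma 3.58.1 in R 4.3.3 as 1 mean for each of the 6 groups, with a mean-variance trend, so that the 12 libraries share one estimate of the spread.

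Named genes are those of the stricter call, the 15 of largest change in each direction at the wider one, up to 4 members a direction of each list, called genes within 2 Mb of REV, and genes the study names. List members without a call are given with values only. TGG1, CYP71A13, FRO2 and other single genes set beside a called one were picked after their values were seen, as were the removals of wrongly annotated members from lists built by name. The comparison and lists were chosen with earlier results of these data known. Alternatives were other scalings, pseudocounts, filters, sets of libraries and each library left out. 1 promoter sequence is not reported here.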

Additional observations from a re-analysis of the deposited data

Results flagged for a closer look

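In 9 of the 37 genes of the stricter call the effect of rev-5 differed between WL+FR and WL at adjusted p under 0.05 in the limma interaction term, tested over all genes. The values are the log2 fold change in WL+FR minus that in WL. The difference was -2.37 for IRT1 (SE 0.23), -2.09 for AT4G37290 (PIP2 in the files), -1.35 for CYP82C2, -1.30 for CML46, -0.84 for FOX2, -0.78 for FOX1, -0.71 for CYP71A12 and -0.48 for GSTF6. All 8 of these were higher in rev-5 in WL, and IRT1 alone of them was lower at adjusted p under 0.05 in WL+FR. It was 1.02 for AT3G06355 (SE 0.12), which was lower in rev-5 in both lights. In Col-0 these 8 raised genes had higher levels in WL+FR than in WL. Col-0 seedlings had 14.08 and 15.08 FPKM of CML46 in WL+FR, against 2.80 and 3.12 FPKM in WL, and 8.40 and 5.74 FPKM of AT4G37290 in WL+FR, against 0.61 and 0.82 FPKM in WL. The 37 genes were selected by their value in WL, which favours a smaller value in WL+FR.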

How the results depend on the processing

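The stricter call gave 37 genes and the wider one 1143. Without 1 library at a time they gave 19 to 24 and 583 to 618, and without the first Col-0 library the higher share of the wider calls was 65.3% in place of 56.2%. Fitting only the 4 libraries gave 15 and 731, and a fit without the mean-variance trend 12 and 535. A looser stricter call (adjusted p under 0.05 and a log2 fold change over 1) gave 71 genes, and an adjusted p under 0.01 gave 489. The remaining alternatives (FPKM as deposited, quantile and median-of-ratios scaling, TPM without the 10 highest genes, a pseudocount of 0.1, no minimum mean, genes at 0 also tested, and 8 libraries of rev-5 and Col-0) stayed between 28 and 43 and between 935 and 1166. All 37 genes stayed at adjusted p under 0.05 under each of these scalings, and no named gene that passed the wider threshold changed direction in any alternative. WOX4, which did not pass, was at -0.23, and at 0.01 without the second Col-0 library. Of 260 named genes tested, between 157 and 257 kept their side of the threshold in an alternative. The camalexin median was 1.304 with a pseudocount of 0.1, the mesophyll marker median 0.312 without the 10 highest genes, and the SAUR median, at 0.007, was -0.003 with quantile scaling. No paired analysis was made, because the library numbers run on over all groups and do not show which replicates, if any, belong together. Low fragment numbers limit AT4G37290, AT3G55790 and FT, among others.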

Other observations

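Some genes fall outside the test because at least 1 library lists them at 0. Of these, 14 are listed at 0 in both Col-0 WL libraries and have at least 50 estimated fragments in both rev-5 WL libraries, and 17 show the reverse. The metabolic enzyme mMDH2 had 10.59 and 12.29 FPKM in rev-5 WL and is listed at 0 in the other 10 libraries, and MOS7 had 6.48 and 5.70 FPKM in Col-0 WL and is listed at 0 in both rev-5 WL libraries. All of them overlap another annotated gene. Zeros of this kind can be failed estimates, and their direction is not read here.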
